A study of Mus musculus with 18 samples.

Results

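Nuclear genes that encode the oxidative phosphorylation system were followed through RNA-seq and ribosome profiling of the mouse cerebellum. A gene was a member when it had a transcript annotated as protein coding and a symbol that began with *Nduf*, *Uqcr*, *Cox4* to *Cox8* or *Atp5*, or was *Sdha*, *Sdhb*, *Sdhc* or *Sdhd*. The rule took 94 of the 54752 genes in the RNA data, under 93 symbols because *Atp5o* had 2 gene identifiers. By complex they were 36 subunits of complex I, 4 of complex II, 8 of complex III, 20 genes of complex IV with its tissue isoforms, 18 genes of complex V and 8 assembly factors of complex I. Subunits encoded by mitochondrial DNA, *Cyc1* and most assembly factors lie outside these symbols. A further 13 symbol matches had no protein coding transcript and were left out.

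In oxidative phosphorylation, complexes I and II pass electrons from NADH and succinate to ubiquinone, complex III passes them to cytochrome c, and complex IV, cytochrome c oxidase, passes them to oxygen. The proton gradient that complexes I, III and IV build drives the ATP synthase, complex V. Neurons draw most of their ATP from this system, and the many small granule neurons make up most of the cells of the cerebellum.

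The study asked how loss of either of the related GTPases GTPBP1 and GTPBP2, which act on stalled ribosomes, changes gene expression in mice that are short of an arginine tRNA. RNA and ribosome footprints were each measured in 3 cerebella of each genotype, all from mice 3 weeks old, 18 libraries in all. The controls were C57BL/6J mice (B6J), which carry a homozygous mutation in *n-Tr20*, the brain tRNA-Arg-UCU gene that reads AGA codons, and both mutants carried it as well. B6J.*Gtpbp1*-/- mice lacked *Gtpbp1* through a PGK-Neo cassette in place of exon sequence, backcrossed to C57BL/6J for many generations, and B6J-*Gtpbp2*-/- mice carried the ENU-induced *nmf205* point mutation of *Gtpbp2*, a null allele. Each footprint library came from the cerebellum of a single mouse, the study used both sexes, and the labels give no sex for single animals. RNA libraries held 37794333 to 52114145 estimated counts and footprint libraries 3630823 to 10442573 footprints, so that footprint values of low genes were the less precise. RNA and footprint libraries were prepared by different methods, so effects of preparation and of assay cannot be told apart.

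The mutated genes were examined first. *Gtpbp1* RNA was at 43.5, 38.4 and 40.4 TPM in B6J, 34.5, 35.1 and 41.1 in B6J.*Gtpbp1*-/-, and 40.3, 43.2 and 39.9 in B6J-*Gtpbp2*-/-, where TPM is kallisto's transcript level, scaled for length and library size. The B6J.*Gtpbp1*-/- and B6J libraries overlapped on this scale. In counts scaled to library size, edgeR's quasi-likelihood test put *Gtpbp1* RNA lower in B6J.*Gtpbp1*-/-, with a log2 fold change of -0.73 ± 0.08 (SE; adjusted p = 5.94e-05). All 3 libraries were under all 3 B6J libraries in such counts, and an offset for effective transcript length ended the edgeR call (adjusted p = 0.0815). Footprint density, the footprint count divided by the length of the coding sequence and by the library total, was for *Gtpbp1* 37.1, 58.9 and 40.8 in B6J, 15.7, 12.9 and 17.9 in B6J.*Gtpbp1*-/-, and 40.4, 33.4 and 30.7 in B6J-*Gtpbp2*-/-. The B6J.*Gtpbp1*-/- libraries were all lower than the B6J libraries, with a log2 fold change of -1.57 ± 0.23 (SE) and an adjusted p of 0.00676 in edgeR, the direction the labels give. *Gtpbp2* RNA was at 114, 91.7 and 99.0 TPM in B6J, 139, 160.0 and 162 in B6J.*Gtpbp1*-/-, and 127, 145 and 151 in B6J-*Gtpbp2*-/-. In B6J.*Gtpbp1*-/- it was higher in all 3 libraries and rose (0.34 ± 0.08 SE, edgeR adjusted p = 0.0154), a call lost without B6J.*Gtpbp1*-/- replicate 1 and without B6J replicate 2. A gene with a point mutation may still be transcribed, so its RNA level is a weak check of the B6J-*Gtpbp2*-/- labels. Its log2 fold change there was -0.22 ± 0.09 (SE) with an edgeR adjusted p of 0.190 and -0.61 where only protein coding transcripts were counted (adjusted p = 0.00967 in edgeR), whereas in TPM all 3 libraries were above B6J. Between the mutants, *Gtpbp2* RNA was higher in B6J.*Gtpbp1*-/- (0.55 ± 0.08 SE, adjusted p = 0.0360 in edgeR, with overlapping TPM), the direction the labels give, and *Gtpbp1* RNA gave -0.60 ± 0.09 (SE; adjusted p = 0.0502), without passing. The footprint density of *Gtpbp2* was 24.9, 20.2 and 20.5 in B6J, 19.6, 24.2 and 32.4 in B6J.*Gtpbp1*-/-, and 16.3, 14.6 and 4.12 in B6J-*Gtpbp2*-/-. The B6J-*Gtpbp2*-/- libraries were the lowest, but the difference did not pass in edgeR (-0.97 ± 0.44 SE, adjusted p = 0.321).

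Members were among the well expressed genes of the B6J cerebellum, and their levels differed widely. *Atp5b*, the catalytic beta subunit of ATP synthase, had the highest mean, 1387 ± 25.0 TPM (SD, n = 3). The complex IV subunits *Cox4i1* (1149.8 ± 16.0 TPM) and *Cox8a* (1148 ± 24.3 TPM) came next, and these did not differ beyond their spread. The most abundant members of the other complexes were *Uqcrh* of complex III (639.8 ± 30.4 TPM), *Ndufb8* of complex I (353 ± 6.15 TPM) and *Sdha* of complex II (289 ± 7.81 TPM). Assembly factors were lower, with *Ndufaf5* (48.6 ± 3.97 TPM) and *Ndufaf7* (45.8 ± 4.22 TPM) highest among them. The means of this pair did not differ beyond their spread. Tissue isoforms of complex IV were low, *Cox6b2* the highest of them (38.9 ± 13.8 TPM), and *Cox8c*, a testis isoform, was at 0 in every RNA library, as was the second *Atp5o* identifier. Summed over members, RNA was at 27984, 27724 and 29002 TPM in B6J, 25110.3, 25091 and 23827 in B6J.*Gtpbp1*-/-, and 24383, 24965 and 23315 in B6J-*Gtpbp2*-/-. That was 2.80, 2.77 and 2.90 percent of all TPM in B6J, 2.51, 2.51 and 2.38 in B6J.*Gtpbp1*-/-, and 2.44, 2.50 and 2.33 in B6J-*Gtpbp2*-/-, and each mutant library lay under each B6J library. The log2 ratio of the mean sums was -0.19 for B6J.*Gtpbp1*-/- and -0.22 for B6J-*Gtpbp2*-/-. In counts scaled to library size with TMM, which are not divided by length, these ratios were -0.32 and -0.33.

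RNA of many oxidative phosphorylation genes fell in both mutants, and the falls were modest in size. In B6J.*Gtpbp1*-/-, 92 of the 94 members passed the filter of at least 5 counts in at least 3 of 6 libraries. Of these 48 fell and 1, *Cox6a2*, rose, where a call was an edgeR p of 0.05 or less after adjustment over all genes. Over all 24577 genes tested, 7.93% fell, a smaller share than among the members, and 5.9% rose. The members' median log2 fold change was -0.32, against 0.03 over all genes, and 86 of the 92 were below 0. For B6J-*Gtpbp2*-/-, 41 of 91 tested members, *Cox8b* having dropped under the filter, fell and 1, again *Cox6a2*, rose. There 5.02% of 24859 genes fell and 3.61% rose, and the members' median was -0.32 against 0.03. Both comparisons use the same B6J libraries, so their likeness is not independent. With upper quartile scaling in place of TMM, the split of all calls in B6J.*Gtpbp1*-/- went from 1449 higher and 1949 lower to 1837 and 1512, and in B6J-*Gtpbp2*-/- from 898 and 1248 to 1074 and 941. Under that scaling 43 and 37 members still passed as lower. The B6J-*Gtpbp2*-/- count depended on single libraries: 20 members passed as lower without B6J replicate 1, 26 without B6J replicate 2 and 22 without B6J-*Gtpbp2*-/- replicate 3. With an offset for effective transcript length, 35 members in B6J.*Gtpbp1*-/- and 27 in B6J-*Gtpbp2*-/- passed as lower among 1331 and 785 such genes in all.

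**Figure D1:**
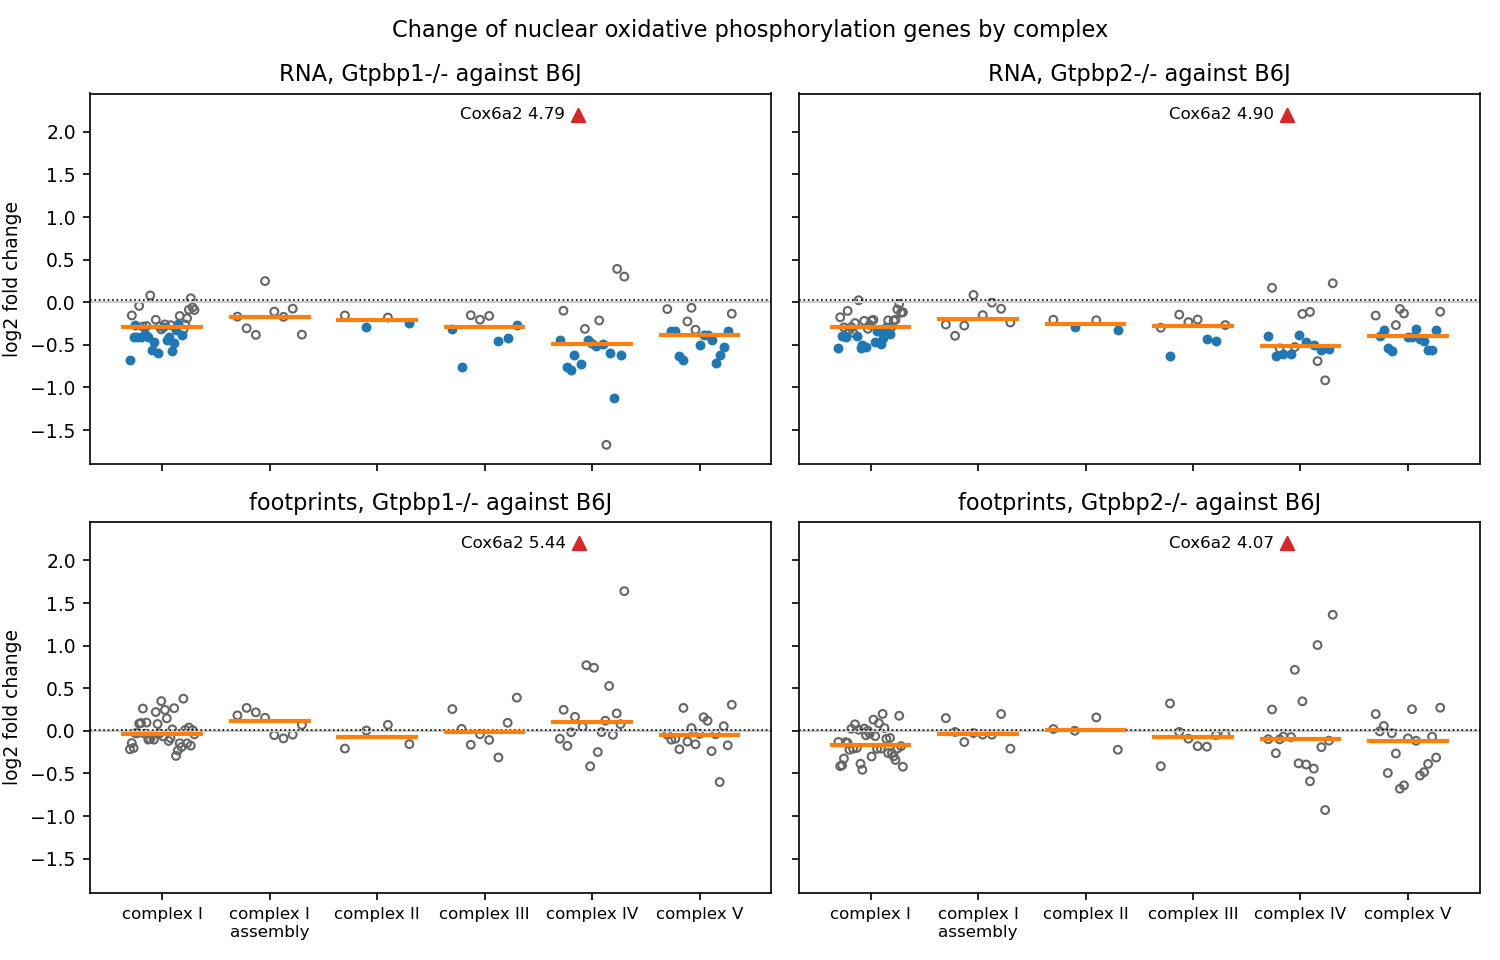
Log2 fold change against B6J of each tested member (y axis), by complex (x axis), in RNA (upper row) and footprints (lower row) of B6J.*Gtpbp1*-/- (left) and B6J-*Gtpbp2*-/- (right). Filled blue circles passed as lower, red triangles as higher and open circles did not pass in edgeR; orange bars are medians of a complex, the dotted line is the median of all genes, and *Cox6a2* lies above the axis with its value written beside it. The RNA median of each complex lies under the dotted line, and that of complex IV is the lowest.

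Markers of cerebellar cell types moved with genotype as well. All 7 granule neuron markers fell in B6J.*Gtpbp1*-/- and 6 of 7 in B6J-*Gtpbp2*-/-, with medians of -0.68 and -0.65. Their summed RNA was 3619.6, 3653 and 3685 TPM in B6J, 2361, 2312 and 2692 in B6J.*Gtpbp1*-/-, and 2470.1, 2698 and 2307 in B6J-*Gtpbp2*-/-, with *Gabra6* the most abundant. Mutant libraries were all under the B6J libraries, by a larger margin than for the oxidative phosphorylation genes. Of 5 Purkinje cell markers, 1 and 3 fell (sums 4623, 4903 and 3868 TPM in B6J, 4618, 3833 and 5145 in B6J.*Gtpbp1*-/-, and 3848, 4209 and 3474 in B6J-*Gtpbp2*-/-, led by *Pcp2*). All 5 oligodendrocyte markers fell in B6J.*Gtpbp1*-/- and 0 in B6J-*Gtpbp2*-/- in edgeR, where 0 had an unadjusted p under 0.05 and in the direct comparison of the mutants 0 passed but 4 had an unadjusted p under 0.05, all lower in B6J.*Gtpbp1*-/- (sums 8976, 7707 and 8913 TPM in B6J, 7242, 7360.2 and 6322 in B6J.*Gtpbp1*-/-, and 10563, 7934 and 8614 in B6J-*Gtpbp2*-/-, led by *Mbp*). The other cell types did not share that pattern. Microglial markers were higher: 3 of 5 rose in B6J.*Gtpbp1*-/- and 3 in B6J-*Gtpbp2*-/- (sums 55.2, 56.2 and 60.3 TPM in B6J, 133, 115 and 119 in B6J.*Gtpbp1*-/-, and 118, 118 and 124 in B6J-*Gtpbp2*-/-, led by *C1qa*). Of 3 endothelial markers 2 rose in each (sums 55.6, 55.6 and 58.2 TPM in B6J, 82.1, 93.6 and 88.0 in B6J.*Gtpbp1*-/-, and 80.0, 103 and 109 in B6J-*Gtpbp2*-/-, led by *Cldn5*). Among 5 astrocyte and Bergmann glia markers, *Gfap* rose by 1.35 and 1.22 and 2 fell in each mutant (sums 1475, 1541 and 1300.4 TPM in B6J, 1600.1, 1357 and 1608 in B6J.*Gtpbp1*-/-, and 1386, 1591 and 1394 in B6J-*Gtpbp2*-/-, led by *Slc1a3*). Glial and vascular markers thus went up or were mixed while those of granule neurons went down. Choroid plexus markers, led by *Ttr*, differed between libraries of the same genotype, with sums of 3299, 2165 and 444 TPM in B6J, 3680.2, 2741 and 772 in B6J.*Gtpbp1*-/-, and 109, 2226 and 1454 in B6J-*Gtpbp2*-/-, and none passed. Blood markers, led by *Hbb-bs*, summed to 5860.3, 3291 and 4471 TPM in B6J, 8163, 7122 and 9161 in B6J.*Gtpbp1*-/-, and 1489.6, 7116 and 3994 in B6J-*Gtpbp2*-/-. All B6J.*Gtpbp1*-/- libraries were above B6J, with a median of 0.55 where 0 of 4 passed in edgeR and 1 had an unadjusted p under 0.05, while B6J-*Gtpbp2*-/- libraries spread widely and 0 passed. Their footprint medians were 1.02 and 1.17, with 0 and 0 past the threshold in edgeR and 1 and 0 at an unadjusted p under 0.05. In RNA from whole cerebellum, fewer cells of a type and less RNA per cell cannot be told apart, and the part of these markers in the fall of oxidative phosphorylation genes was not tested.

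Complex I, NADH dehydrogenase, is built of core subunits that carry out the reaction and of accessory subunits around them. Of its 36 genes, 18 fell in B6J.*Gtpbp1*-/- (median -0.29) and 15 in B6J-*Gtpbp2*-/- (median -0.29), and none rose. Accessory subunits made up 16 and 13 of these, out of 29, and core subunits 2 and 2, out of 7. Over the complex the changes ran from -0.68 to 0.08 (*Ndufa9*) in B6J.*Gtpbp1*-/- and from -0.54 to 0.02 in B6J-*Gtpbp2*-/-. *Ndufa1*, a small membrane subunit, was at 299, 258 and 258 TPM in B6J, 222, 203 and 197 in B6J.*Gtpbp1*-/-, and 206, 222 and 210.4 in B6J-*Gtpbp2*-/-. Its mutant libraries were all under the B6J libraries, and it fell by 0.68 ± 0.11 (SE, log2) in B6J.*Gtpbp1*-/- (edgeR adjusted p = 0.000986), the most of complex I, and by 0.54 ± 0.11 in B6J-*Gtpbp2*-/- (adjusted p = 0.0125). *Ndufb2*, an accessory subunit of the membrane arm, was at 243, 231 and 237 TPM in B6J, 132, 144 and 157 in B6J.*Gtpbp1*-/-, and 168, 185 and 136 in B6J-*Gtpbp2*-/-. It too was lower in every mutant library, with edgeR log2 fold changes of -0.59 ± 0.09 (SE; adjusted p = 0.00083) and -0.53 ± 0.08 (SE; adjusted p = 0.00260). *Ndufb10* and *Ndufb8*, also of the membrane arm, fell by 0.47 and 0.41 in B6J.*Gtpbp1*-/-, and by 0.50 and 0.34 in B6J-*Gtpbp2*-/-. *Ndufab1*, the mitochondrial acyl carrier protein, was at 209, 214 and 272 TPM in B6J, 189, 215 and 205 in B6J.*Gtpbp1*-/-, and 181, 223 and 178 in B6J-*Gtpbp2*-/-. Mutant and B6J libraries overlapped in TPM, although in counts it fell in both (-0.57 ± 0.09 SE, adjusted p = 0.00120 and -0.54 ± 0.09 SE, adjusted p = 0.00531 in edgeR). The length offset ended both calls, with edgeR adjusted p values of 0.0919 and 0.109.

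The core subunits of complex I had medians of -0.16 and -0.21, where the accessory subunits had -0.32 and -0.33. *Ndufs1*, which carries iron-sulfur clusters of the NADH-oxidizing arm, was at 169, 166 and 186 TPM in B6J, 165, 159 and 154 in B6J.*Gtpbp1*-/-, and 156, 160.4 and 156 in B6J-*Gtpbp2*-/-. Every mutant library was under every B6J library, and it fell in B6J.*Gtpbp1*-/- (-0.32 ± 0.07 SE, adjusted p = 0.00912 in edgeR) and in B6J-*Gtpbp2*-/- (-0.36 ± 0.07 SE, adjusted p = 0.0112). *Ndufv1*, the flavoprotein that oxidizes NADH, was at 181, 173 and 179 TPM in B6J, 207, 200.2 and 203 in B6J.*Gtpbp1*-/-, and 186, 202 and 210.4 in B6J-*Gtpbp2*-/-, with the mutant libraries higher on this scale. Its log2 fold changes in counts, 0.05 ± 0.07 (SE) and -0.02 ± 0.07 (SE), did not pass in edgeR (adjusted p = 0.764 and 0.922). The *Ndufs1* call in B6J-*Gtpbp2*-/- was lost without B6J replicate 1 (edgeR adjusted p = 0.0507), and those of *Ndufa1* and *Ndufb8* without B6J-*Gtpbp2*-/- replicate 3 and without B6J replicate 1. With the length offset the B6J-*Gtpbp2*-/- calls of *Ndufs1*, *Ndufb8* and *Ndufb10* were lost as well. None of the 8 assembly factors of complex I passed in edgeR in either mutant, with 1 and 2 at an unadjusted p under 0.05 and medians of -0.17 and -0.19. *Ndufaf5*, which had the highest mean of them in B6J, was at 44.4, 52.3 and 49.0 TPM in B6J, 48.6, 54.5 and 50.2 in B6J.*Gtpbp1*-/-, and 45.2, 49.3 and 52.7 in B6J-*Gtpbp2*-/-, and the groups overlapped.

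Complex II, succinate dehydrogenase, is the only complex made of nuclear-encoded subunits alone, and it is also an enzyme of the citric acid cycle. Of its 4 subunits 2 passed as lower in each mutant, *Sdhb* and *Sdhd*, with medians for the complex of -0.21 and -0.25. *Sdhb*, the iron-sulfur subunit, was at 169, 163 and 159.7 TPM in B6J, 155, 156 and 147 in B6J.*Gtpbp1*-/-, and 155, 141 and 152 in B6J-*Gtpbp2*-/-. All mutant libraries were under the B6J libraries, with log2 fold changes of -0.29 ± 0.07 (SE; adjusted p = 0.0155) and -0.30 ± 0.08 (SE; adjusted p = 0.0349) in edgeR. *Sdhd*, a membrane anchor, was at 160.3, 173 and 179 TPM in B6J, 168, 168 and 159 in B6J.*Gtpbp1*-/-, and 148, 161 and 152 in B6J-*Gtpbp2*-/-, with overlapping groups, and gave -0.24 ± 0.07 (SE; adjusted p = 0.0455) and -0.32 ± 0.08 (SE; adjusted p = 0.0273) in edgeR. *Sdha*, the flavoprotein that oxidizes succinate, did not pass (-0.15 ± 0.08 SE and -0.21 ± 0.08 SE), at 296, 288 and 281 TPM in B6J, 299, 308 and 306 in B6J.*Gtpbp1*-/-, and 282, 279.9 and 298 in B6J-*Gtpbp2*-/-. For *Sdha* in B6J.*Gtpbp1*-/-, TPM were above B6J in all 3 libraries while the change in counts was below 0. These calls were fragile: *Sdhd* in B6J.*Gtpbp1*-/- was lost in each of the 6 fits that left out 1 library, and *Sdhb* was lost without B6J.*Gtpbp1*-/- replicate 3 and without B6J replicate 1. Of the B6J-*Gtpbp2*-/- calls, *Sdhd* was lost without B6J-*Gtpbp2*-/- replicate 3, without B6J replicate 1, without B6J replicate 2 and without B6J replicate 3, and *Sdhb* was kept only without B6J-*Gtpbp2*-/- replicate 1. The length offset ended all 4 calls.

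In complex III, ubiquinol-cytochrome c reductase, 5 of 8 genes fell in B6J.*Gtpbp1*-/- and 3 in B6J-*Gtpbp2*-/-, with medians of -0.29 and -0.28. *Uqcr11*, a small accessory subunit, was at 496, 439 and 464 TPM in B6J, 359, 312 and 336 in B6J.*Gtpbp1*-/-, and 361, 343 and 321 in B6J-*Gtpbp2*-/-. It was lower in all 6 mutant libraries than in any B6J library and showed the largest fall of the complex, -0.76 ± 0.09 (SE; adjusted p = 8.94e-05) and -0.63 ± 0.10 (SE; adjusted p = 0.00266) in edgeR. *Uqcrfs1*, the Rieske iron-sulfur protein, was at 162, 174 and 177 TPM in B6J, 137, 150.2 and 132 in B6J.*Gtpbp1*-/-, and 138, 140.1 and 146 in B6J-*Gtpbp2*-/-. Its groups did not overlap either, and it fell by 0.46 and 0.43. *Uqcrh*, the hinge protein and the most abundant gene of the complex, was at 638, 610.4 and 671 TPM in B6J, 591, 627 and 524 in B6J.*Gtpbp1*-/-, and 517, 525 and 573 in B6J-*Gtpbp2*-/- and fell by 0.42 and 0.45, although the B6J.*Gtpbp1*-/- libraries overlapped B6J in TPM. The core protein gene *Uqcrc1* did not pass (-0.21 ± 0.07 SE and -0.23 ± 0.07 SE), at 251, 247 and 239.6 TPM in B6J, 254, 244 and 236 in B6J.*Gtpbp1*-/-, and 239.6, 239.5 and 236 in B6J-*Gtpbp2*-/-, overlapping groups, although DESeq2 called it lower in both (adjusted p = 0.0308 and 0.0167), as did a single edgeR model of all 9 libraries in B6J-*Gtpbp2*-/- (0.0391). In the pairwise edgeR fits *Uqcr10* passed in B6J.*Gtpbp1*-/- but not in B6J-*Gtpbp2*-/- (-0.31 ± 0.08 SE, adjusted p = 0.0205 in edgeR, -0.30 ± 0.10 SE in B6J-*Gtpbp2*-/-), and the difference between the mutants did not pass (-0.01 ± 0.09 SE, adjusted p = 1.000). It was also called lower in B6J-*Gtpbp2*-/- by DESeq2 (adjusted p = 0.0387) and the single model (0.0389). The B6J.*Gtpbp1*-/- call was lost without B6J.*Gtpbp1*-/- replicate 2, without B6J.*Gtpbp1*-/- replicate 3, without B6J replicate 1 and without B6J replicate 2, and with the length offset, the replicate block and protein coding transcripts alone. The *Uqcrh* call in B6J.*Gtpbp1*-/- was lost with the length offset too (edgeR adjusted p = 0.0594).

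In complex IV all 11 broadly expressed subunits fell in B6J.*Gtpbp1*-/- and 9 of 11 in B6J-*Gtpbp2*-/-, with medians of -0.62 and -0.55, and *Cox5b* and *Cox8a* were the ones that did not pass in B6J-*Gtpbp2*-/-. *Cox8a*, a small subunit in the inner membrane, was at 1122, 1169 and 1154 TPM in B6J, 613, 671 and 774 in B6J.*Gtpbp1*-/-, and 829, 789 and 489.7 in B6J-*Gtpbp2*-/-. Among members that passed it fell the most, by 1.13 ± 0.09 (SE, log2) in B6J.*Gtpbp1*-/- (edgeR adjusted p = 2.65e-06). Its B6J-*Gtpbp2*-/- libraries spread more, and the change there was -0.92 ± 0.26 (SE) with all 3 libraries under B6J and an edgeR adjusted p of 0.0911. *Cox5b*, a subunit on the matrix side, was at 377, 356 and 368 TPM in B6J, 294, 277 and 276 in B6J.*Gtpbp1*-/-, and 359, 310.4 and 235 in B6J-*Gtpbp2*-/-. It fell in B6J.*Gtpbp1*-/- (-0.79 ± 0.08 SE, adjusted p = 1.68e-05 in edgeR), and in B6J-*Gtpbp2*-/- gave -0.54 ± 0.19 (SE; adjusted p = 0.141), with overlapping TPM. *Cox5a*, which also lies on the matrix side, was at 428, 467 and 528 TPM in B6J, 334, 355 and 318 in B6J.*Gtpbp1*-/-, and 354, 367 and 334 in B6J-*Gtpbp2*-/- and fell in both mutants, by 0.76 and 0.63, with no overlap. *Cox6b1*, on the side of the intermembrane space, was at 569, 563 and 630.2 TPM in B6J, 406, 449.9 and 389 in B6J.*Gtpbp1*-/-, and 457, 436 and 410.4 in B6J-*Gtpbp2*-/-, again without overlap, and fell by 0.73 ± 0.08 and 0.60 ± 0.08. *Cox4i1*, the regulatory subunit that binds nucleotides, was at 1132, 1164 and 1154 TPM in B6J, 1076, 1005 and 920.1 in B6J.*Gtpbp1*-/-, and 1023, 981 and 966 in B6J-*Gtpbp2*-/- and fell less, by 0.45 and 0.40. *Ndufa4*, named for complex I but a subunit of complex IV, was at 1060.1, 1069.5 and 1177 TPM in B6J, 777, 721 and 649 in B6J.*Gtpbp1*-/-, and 953, 816 and 664 in B6J-*Gtpbp2*-/-, lower in every mutant library, with falls of 0.62 and 0.55. *Cox7a2* fell by 0.51 and 0.47, whereas the related *Cox7a2l*, a factor for supercomplexes, did not pass (-0.21 ± 0.08 SE and -0.11 ± 0.08 SE). The B6J-*Gtpbp2*-/- call of *Cox4i1* was lost without B6J replicate 1 (edgeR adjusted p = 0.0505), and that of *Cox6a1* without B6J replicate 1, without B6J replicate 2 and without B6J replicate 3 (up to 0.0793) and with the replicate block (0.0800). *Cox8a*, by contrast, passed in B6J-*Gtpbp2*-/- without B6J-*Gtpbp2*-/- replicate 3 (edgeR adjusted p = 0.00192) and with the length offset (0.0208), and DESeq2 called both it and *Cox5b*.

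Complex V makes ATP with a catalytic head, a rotating ring of c subunits, a peripheral stalk and small membrane subunits. Of 17 tested genes 12 fell in each mutant, with medians of -0.38 and -0.40. All 4 small membrane subunits fell in both (medians -0.57 and -0.51), as did 4 of the 5 head subunits and 3 of 4 tested in the stalk. *Atp5l*, the membrane subunit g, was at 759, 746 and 824 TPM in B6J, 598, 609 and 590.3 in B6J.*Gtpbp1*-/-, and 595, 608 and 558 in B6J-*Gtpbp2*-/-. Its mutant libraries were all lower, with -0.62 ± 0.08 (SE; adjusted p = 0.00013) and -0.57 ± 0.09 (SE; adjusted p = 0.00225) in edgeR. The changes over complex V ran from -0.71 (*Atp5k*) to -0.06 (*Atp5g1*) in B6J.*Gtpbp1*-/- and from -0.57 (*Atp5e*) to -0.08 (*Atp5g1*) in B6J-*Gtpbp2*-/-. *Atp5k*, subunit e, was at 474, 457 and 502 TPM in B6J, 342, 399.9 and 337 in B6J.*Gtpbp1*-/-, and 364, 455 and 374 in B6J-*Gtpbp2*-/- and fell by 0.71 and 0.45, also without overlap. In the head, *Atp5e* (epsilon) was at 555, 514 and 503 TPM in B6J, 396, 398 and 381 in B6J.*Gtpbp1*-/-, and 354, 449 and 395 in B6J-*Gtpbp2*-/- and *Atp5d* (delta) at 247, 281 and 267 TPM in B6J, 187, 197 and 215 in B6J.*Gtpbp1*-/-, and 214, 227 and 181 in B6J-*Gtpbp2*-/-. Both were lower in every mutant library, with falls of 0.68 and 0.63 in B6J.*Gtpbp1*-/- and of 0.57 and 0.54 in B6J-*Gtpbp2*-/-. *Atp5b*, the beta subunit, was at 1394, 1407 and 1359 TPM in B6J, 1259, 1209.9 and 1246 in B6J.*Gtpbp1*-/-, and 1161, 1216 and 1156 in B6J-*Gtpbp2*-/-. Its groups did not overlap, and it fell in both (-0.34 ± 0.08 SE, adjusted p = 0.0105 and -0.40 ± 0.08 SE, adjusted p = 0.0105 in edgeR). *Atp5a1*, the alpha subunit that pairs with beta in equal number, was at 752, 762 and 744 TPM in B6J, 827, 779 and 796 in B6J.*Gtpbp1*-/-, and 735, 768 and 764 in B6J-*Gtpbp2*-/- and did not pass (-0.08 ± 0.08 SE and -0.16 ± 0.08 SE), with TPM of B6J.*Gtpbp1*-/- above B6J. The *Atp5b* call was lost without B6J.*Gtpbp1*-/- replicate 2 and with the replicate block in B6J.*Gtpbp1*-/- and without B6J replicate 1 in B6J-*Gtpbp2*-/-, and that of *Atp5k* in B6J-*Gtpbp2*-/- was kept only without B6J-*Gtpbp2*-/- replicate 2. The length offset also ended the *Atp5k* call in B6J-*Gtpbp2*-/-.

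The c ring is made from a family of genes whose mature proteins are the same and whose import sequences differ. *Atp5g3* was the most abundant in RNA (859, 768 and 813 TPM in B6J, 689, 700.2 and 612 in B6J.*Gtpbp1*-/-, and 688, 694 and 697 in B6J-*Gtpbp2*-/-) and fell by 0.51 and 0.41, lower in every mutant library. *Atp5g1* (362, 327 and 338 TPM in B6J, 344, 298 and 316 in B6J.*Gtpbp1*-/-, and 317, 312 and 299 in B6J-*Gtpbp2*-/-) and *Atp5g2* (28.4, 19.4 and 32.9 TPM in B6J, 33.8, 22.8 and 21.2 in B6J.*Gtpbp1*-/-, and 31.8, 20.2 and 32.7 in B6J-*Gtpbp2*-/-) did not pass, with log2 fold changes of -0.06 and -0.32 in B6J.*Gtpbp1*-/- and -0.08 and -0.13 in B6J-*Gtpbp2*-/-. Whether the family members differed from each other in response was not tested.

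Set directly against each other, the mutants showed no called difference in RNA of these genes: 0 of 92 passed in edgeR, 0 had an unadjusted p under 0.05, against 899 of 25190 genes, DESeq2 called 0 lower and 0 higher, and 0.0595% of all genes passed. The members' median difference was -0.01, and the broad subunits of complex IV had -0.05. Values ran from -0.99 (*Cox7b2*) to 0.79 (*Cox8b*), both isoforms of low level.

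Several complex IV subunits exist as isoforms of different tissues, and 1 of them, *Cox6a2*, went against the rest. *Cox6a2*, the isoform of heart and skeletal muscle, was at 1.15, 0.698 and 1.40 TPM in B6J, 32.0, 36.5 and 40.2 in B6J.*Gtpbp1*-/-, and 26.6, 45.9 and 39.96 in B6J-*Gtpbp2*-/-. It was close to 1 TPM in B6J and far above that in all 6 mutant libraries, with means 33.4-fold and 34.6-fold above B6J (36.2 ± 4.08 and 37.5 ± 9.84 against 1.08 ± 0.357 TPM, SD, n = 3). The log2 fold changes were 4.79 ± 0.28 (SE; adjusted p = 3.06e-07) and 4.90 ± 0.32 (SE; adjusted p = 1.35e-05) in edgeR, and both calls were kept in every fit that left out 1 library. By fold it was number 62 from the top among all genes that passed in B6J.*Gtpbp1*-/- and number 34 in B6J-*Gtpbp2*-/-. *Cox6a1*, the isoform of most tissues, was at 692, 730.4 and 747 TPM in B6J, 602, 581 and 594 in B6J.*Gtpbp1*-/-, and 601, 599 and 437 in B6J-*Gtpbp2*-/- and fell by 0.62 ± 0.08 and 0.61 ± 0.14 (SE). *Cox6a1* thus stayed the more abundant of the pair in every library. Footprints on *Cox6a2* numbered 5, 0 and 17 in B6J, 566, 314 and 398 in B6J.*Gtpbp1*-/-, and 138, 111 and 206 in B6J-*Gtpbp2*-/-. They were few in B6J and more numerous in every mutant library, with 5.44 ± 0.61 (SE; adjusted p = 0.00434) and 4.07 ± 0.58 (SE; adjusted p = 0.00530) in edgeR. As the B6J counts were that low, the size of these changes is uncertain, and the B6J.*Gtpbp1*-/- call was lost without B6J replicate 1 (edgeR adjusted p = 0.0525). Between the mutants, footprints on *Cox6a2* gave 1.37 ± 0.29 (SE; adjusted p = 0.228) in edgeR, and DESeq2 passed it as higher in B6J.*Gtpbp1*-/-.

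The other muscle isoforms did not follow. *Cox7a1* was at 24.3, 32.8 and 12.6 TPM in B6J, 19.7, 24.5 and 13.3 in B6J.*Gtpbp1*-/-, and 27.9, 23.2 and 19.1 in B6J-*Gtpbp2*-/-, with overlapping groups (-0.49 ± 0.37 SE and -0.14 ± 0.35 SE, edgeR adjusted p = 0.466 and 0.875). *Cox8b* was at 2.04, 1.20 and 0.266 TPM in B6J, 1.88, 3.10 and 0.452 in B6J.*Gtpbp1*-/-, and 0, 1.18 and 1.78 in B6J-*Gtpbp2*-/-, close to the floor, and did not pass in B6J.*Gtpbp1*-/- (0.39 ± 1.16 SE). *Cox4i2*, an isoform known from lung, was at 3.54, 3.98 and 5.66 TPM in B6J, 5.76, 4.57 and 4.36 in B6J.*Gtpbp1*-/-, and 5.43, 6.86 and 4.71 in B6J-*Gtpbp2*-/- and gave -0.10 ± 0.33 (SE) and 0.17 ± 0.32 (SE), without passing. The testis isoforms *Cox6b2* and *Cox7b2* did not pass either (-0.31 and -1.67 in B6J.*Gtpbp1*-/-, -0.53 and -0.69 in B6J-*Gtpbp2*-/-). *Ndufa4l2*, a relative of *Ndufa4* induced in low oxygen, was at 5.60, 3.33 and 8.04 TPM in B6J, 6.89, 7.10 and 5.39 in B6J.*Gtpbp1*-/-, and 3.55, 6.09 and 5.29 in B6J-*Gtpbp2*-/-, overlapping groups. Of 6 muscle and bone markers tested, 0 passed in RNA of B6J.*Gtpbp1*-/- in edgeR and 0 in B6J-*Gtpbp2*-/-, with 0 and 0 at an unadjusted p under 0.05 (sums 21.6, 18.8 and 11.4 TPM in B6J, 17.7, 18.9 and 19.3 in B6J.*Gtpbp1*-/-, and 11.1, 22.6 and 15.8 in B6J-*Gtpbp2*-/-, led by *Col1a1*). *Ckm*, muscle creatine kinase, did not exceed 0.382 TPM in any library, and *Myh4*, a skeletal myosin, was at 0 in 5 of 9. In footprints of B6J.*Gtpbp1*-/- these markers had a median of 1.42 over 7 tested, with 0 past the threshold in edgeR and 3 at an unadjusted p under 0.05. Between the mutants their footprints had a median of 2.75, higher in B6J.*Gtpbp1*-/-, over 6 tested, a larger difference than that of *Cox6a2*, with 0 past the threshold in edgeR and 6 at an unadjusted p under 0.05. They summed to 0.0119, 0.0369 and 0.0523 percent of footprints in B6J, 0.0966, 0.0858 and 0.172 in B6J.*Gtpbp1*-/-, and 0.0324, 0.0546 and 0.0208 in B6J-*Gtpbp2*-/-, and their part in the *Cox6a2* footprints was not tested.

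*Cox6a2* lies on the minus strand at chr7:128205435-128206387 (GRCm38, Gencode M21), inside the span of *Itgad*, an integrin gene on the plus strand at chr7:128154376-128223816. Exons of *Itgad* cover 70 of the 680 exonic bases of *Cox6a2* and 0 of its 291 coding bases. RNA reads of the shared stretch could come from either gene. Genes within 50 kb were looked at after the values of *Cox6a2* had been seen. *Itgad* RNA was at 0.102, 1.76 and 0.133 in B6J, 4.27, 4.26 and 3.31 in B6J.*Gtpbp1*-/-, and 9.31, 5.28 and 2.82 in B6J-*Gtpbp2*-/-, in TPM. It was higher in every mutant library, but did not pass in edgeR (log2 fold change 1.67 with an adjusted p of 0.151, and 2.24 with 0.146). *4931431B13Rik*, annotated as a processed transcript, 2107 bases from *Cox6a2* on the minus strand at chr7:128192050-128203328, was at 0, 0.0793 and 0 in B6J, 1.15, 0.848 and 1.04 in B6J.*Gtpbp1*-/-, and 0.901, 1.58 and 1.10 in B6J-*Gtpbp2*-/-, in TPM. It was low throughout and higher in all 6 mutant libraries, with log2 fold changes of 4.52 and 4.74 (edgeR adjusted p = 0.0230 and 0.0253). With B6J at or near 0, it passed the filter through the mutant libraries. The size of these changes is therefore uncertain, and nothing was concluded from the calls. Of the others, *9130023H24Rik* (TPM of 2.09, 2.88 and 2.22 in B6J, 3.36, 3.79 and 3.82 in B6J.*Gtpbp1*-/-, and 3.93, 4.15 and 3.67 in B6J-*Gtpbp2*-/-) and the antisense gene *Gm44850* (5.10, 4.80 and 4.01 in B6J, 6.26, 6.92 and 6.34 in B6J.*Gtpbp1*-/-, and 7.74, 6.29 and 5.11 in B6J-*Gtpbp2*-/-) were higher in every mutant library too, without passing in edgeR (0.45 and 0.56, and 0.32 and 0.30). *Tgfb1i1* did not pass (-0.11 and -0.06), and *Armc5* rose by 0.40 in B6J.*Gtpbp1*-/- (edgeR adjusted p = 0.0310, higher in all 3 libraries) and gave 0.34 in B6J-*Gtpbp2*-/- without passing.

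**Figure D2:**
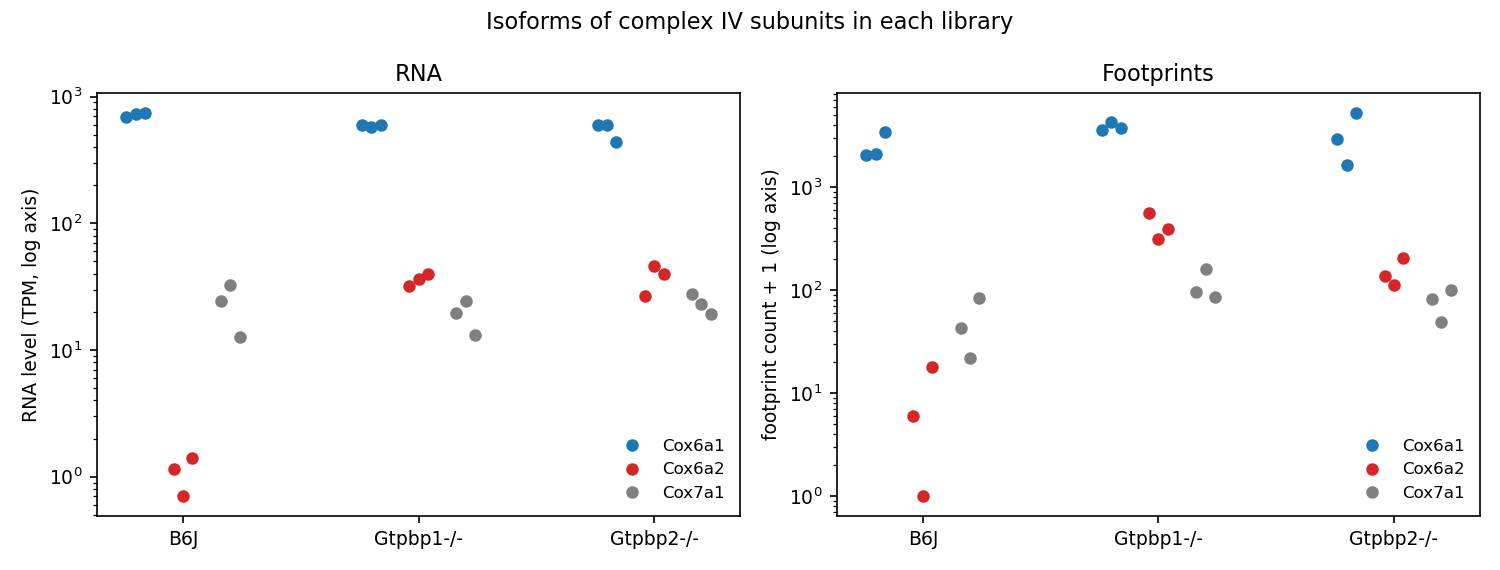
RNA level in TPM (left) and footprint count plus 1 on the coding sequence (right), both on a log axis, of *Cox6a1* (blue), *Cox6a2* (red) and *Cox7a1* (grey). Each point is 1 of the 3 libraries of a genotype. *Cox6a2* lies near 1 TPM in B6J and between 26.6 and 45.9 TPM in the mutants, while *Cox6a1* stays above it in every library and *Cox7a1* shows no shift.

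Ribosome footprints, the fragments that ribosomes protect, show how many ribosomes lay on each coding sequence. Paused ribosomes leave footprints too, and the paper reports raised occupancy at AGA codons in both mutants. A count per gene does not tell paused from moving ribosomes. Few members passed in footprints, and their medians lay nearer to 0 than in RNA. Of 91 tested members, *Cox7b2* being under the filter, 0 passed in B6J.*Gtpbp1*-/- as lower and 1, *Cox6a2*, as higher, where 0.172% and 0.573% of 13956 genes passed. Of the members 4 had an unadjusted p under 0.05, as had 1763 of 13956 genes, and DESeq2 called 0 lower and 2 higher, *Cox6a2* and *Ndufa4l2*. The median was -0.03 against 0.01 over all genes, and its sign turned with upper quartile scaling (0.02), without B6J.*Gtpbp1*-/- replicate 2 (0.02) and without B6J replicate 3 (0.04). B6J-*Gtpbp2*-/- had 0 of 91 members passed as lower, against 1.67% of 13797 genes, and 1, *Cox6a2*, as higher, against 1.28%. There 20 members had an unadjusted p under 0.05, as had 2355 of 13797 genes. DESeq2 called 2 lower (*Atp5d* and *Atp5g1*) and 1 higher, of 355 and 300 genes in all, and the median was -0.10 against 0.01. Without B6J replicate 3, 3 members passed as higher in B6J-*Gtpbp2*-/-, *Cox6a2*, *Ndufa4l2* and *Cox7c*, and the median was -0.03, against -0.19 without B6J replicate 2 and -0.16 without B6J-*Gtpbp2*-/- replicate 3. DESeq2 moved the split of all footprint calls in B6J.*Gtpbp1*-/- from 80 higher and 24 lower to 251 and 155.

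Members took 2.51, 2.30 and 2.68 percent of all footprints in B6J, 2.51, 2.42 and 2.39 in B6J.*Gtpbp1*-/-, and 2.39, 2.26 and 2.47 in B6J-*Gtpbp2*-/-, and the groups overlapped. By complex, medians in B6J.*Gtpbp1*-/- and B6J-*Gtpbp2*-/- were -0.03 and -0.16 for complex I, -0.08 and 0.01 for complex II, and -0.01 and -0.07 for complex III. The broad subunits of complex IV had -0.02 and -0.11, complex V -0.04 and -0.12, and the assembly factors 0.11 and -0.03. Each of these medians was smaller in size than the RNA median of the same group. *Cox8a* had footprint densities of 2829.8, 2659.7 and 4206 in B6J, 2379.8, 2739 and 4383 in B6J.*Gtpbp1*-/-, and 2416, 2915 and 3334 in B6J-*Gtpbp2*-/-, overlapping groups (-0.05 ± 0.26 SE and -0.19 ± 0.20 SE). *Cox4i1* was at 1962, 1628 and 1986 in B6J, 1785, 1604 and 1871 in B6J.*Gtpbp1*-/-, and 1869.5, 1575 and 1858 in B6J-*Gtpbp2*-/-, again overlapping. *Atp5b* gave 1522, 1409 and 1747 in B6J, 1566, 1399.8 and 1418 in B6J.*Gtpbp1*-/-, and 1641, 1506 and 1602 in B6J-*Gtpbp2*-/-, and its log2 fold changes were -0.10 and -0.01. *Ndufs1* (-0.29 and 0.03), *Sdha* (-0.21 and 0.02) and *Uqcrfs1* (-0.31 and -0.19) did not pass in either mutant. *Atp5l* had the lowest change in B6J.*Gtpbp1*-/-, -0.60 ± 0.20 (SE; adjusted p = 0.208) in edgeR, with densities of 453, 564 and 354 in B6J, 269, 286 and 352 in B6J.*Gtpbp1*-/-, and 279.7, 425 and 358 in B6J-*Gtpbp2*-/- and B6J.*Gtpbp1*-/- under B6J in all 3 libraries. In the c ring *Atp5g1* and *Atp5g2* had -0.68 and -0.64 in B6J-*Gtpbp2*-/-, without passing, and *Atp5g3* -0.09. *Ndufa4l2* footprints numbered 8, 8 and 27 in B6J, 87, 64 and 32 in B6J.*Gtpbp1*-/-, and 55, 25 and 58 in B6J-*Gtpbp2*-/-. In footprint density they were higher in every mutant library, but did not pass in edgeR (1.64 ± 0.47 SE, adjusted p = 0.134 and 1.36 ± 0.45 SE, adjusted p = 0.128).

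Directly compared, 0 of 91 members differed between the mutants in footprints in edgeR, as did 0% of 14142 genes, with 10 members and 1523 of 14142 genes at an unadjusted p under 0.05. DESeq2 called 3 higher in B6J.*Gtpbp1*-/-, *Cox6a2*, *Uqcr10* and *Atp5g1*, of 59 such genes among the 14142, and the median difference was 0.13 against 0.00 over all genes. Granule neuron markers were lower in footprints as well, with medians of -0.61 in B6J.*Gtpbp1*-/-, where 0 of 7 passed in edgeR and 5 had an unadjusted p under 0.05, and -1.26 in B6J-*Gtpbp2*-/-, where 6 passed. They summed to 0.333, 0.562 and 0.388 percent of footprints in B6J, 0.291, 0.212 and 0.324 in B6J.*Gtpbp1*-/-, and 0.205, 0.168 and 0.181 in B6J-*Gtpbp2*-/-, lower in every mutant library, and their part in the members' footprints was not tested.

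Translational efficiency (TE) is the footprint change relative to the RNA change, and was tested as the interaction of assay and genotype. As paused ribosomes are counted too, a TE change need not be a change in the rate of translation. Most members had TE changes above 0, their RNA being lower by more than their footprints, but none passed in edgeR. Of 90 tested members 0 passed in B6J.*Gtpbp1*-/- in edgeR, as did 0% of 13086 genes, with 34 members and 1170 of 13086 genes at an unadjusted p under 0.05, and 85 members above 0. The median was 0.35 against 0.03 over all genes. B6J-*Gtpbp2*-/- had 0 of 90 past the threshold in edgeR, where 0.00773% of 12931 genes passed, with 19 members and 1554 of 12931 genes at an unadjusted p under 0.05, 69 members above 0 and a median of 0.21 against 0.03. DESeq2 called 4 members higher in B6J.*Gtpbp1*-/-, *Atp5e*, *Cox6a1*, *Uqcr10* and *Cox5b*, and 4 in B6J-*Gtpbp2*-/-, *Cox7c*, *Uqcr11*, *Atp5h* and *Cox6b2*, of 32 and 69 genes that it called higher in all. Without B6J footprint replicate 3, edgeR passed 6 in B6J.*Gtpbp1*-/- (*Atp5e*, *Ndufa4*, *Cox8a*, *Cox6a1*, *Uqcrq* and *Cox5b*) and 3 in B6J-*Gtpbp2*-/- (*Cox7c*, *Uqcr11* and *Atp5h*), of 174 and 158 genes in all. The B6J-*Gtpbp2*-/- median was 0.12 without B6J footprint replicate 2 and 0.12 without B6J-*Gtpbp2*-/- footprint replicate 3. *Cox8a* had a TE change of 1.09 ± 0.31 (SE; adjusted p = 0.474) in B6J.*Gtpbp1*-/- and 0.73 ± 0.34 (SE; adjusted p = 0.418) in B6J-*Gtpbp2*-/- in edgeR, *Cox7c* of 1.12 ± 0.52 (SE) and 1.56 ± 0.45 (SE), and *Cox5b* of 0.78 ± 0.17 (SE) and 0.45 ± 0.24 (SE). *Cox6a2*, by contrast, had 0.68 ± 0.76 (SE) and -0.80 ± 0.72 (SE), with wide SEs. The core subunit *Ndufv1* (-0.21 and 0.20) lay under the members' median, in B6J.*Gtpbp1*-/- by more than in B6J-*Gtpbp2*-/-. TE was not given as a level, because RNA and footprints were prepared and counted by different methods.

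Most members have short transcripts, and among them the shorter ones had the larger RNA changes. Across members Spearman's rho of effective transcript length with the RNA change was 0.51 in B6J.*Gtpbp1*-/- (92 genes) and 0.47 in B6J-*Gtpbp2*-/- (91 genes), and with the TE change -0.58 and -0.21 (90 genes each). These are descriptions across genes measured in the same libraries, not independent replicates. The TE change holds the RNA change with its sign turned, so its rho is not separate from that of RNA. Classes of effective length, chosen after the data had been seen and limited to genes with a mean of at least 10 TPM, set members beside other genes. In the shortest class, up to 300 bases, 21 members had a median RNA change of -0.49 in B6J.*Gtpbp1*-/- and -0.45 in B6J-*Gtpbp2*-/-, where 577 and 593 other genes had -0.08 and -0.02. From there to 500 bases, 27 members had -0.39 and -0.39, and other genes -0.12 and -0.10. Between 1000 and 2000 bases the 12 members had -0.19 and -0.22, and other genes -0.06 and -0.07. In RNA, members were thus lower than other genes of like length in each of these classes. Footprint and TE values exist for far fewer of the other short genes, 79 and 80 in footprints and 77 and 78 in TE up to 300 bases, so that those medians rest on other sets of genes than the RNA medians. TE was higher in other short genes as well: in B6J.*Gtpbp1*-/-, classes up to 300, 500, 1000 and 2000 bases had medians of 0.58, 0.51, 0.21 and 0.08 for members and 0.50, 0.36, 0.19 and 0.09 for other genes. For B6J-*Gtpbp2*-/- they were 0.32, 0.30, 0.11 and 0.17 for members and 0.15, 0.13, 0.07 and 0.05 for other genes, so that members lay above genes of like length there. Footprints of the shortest class gave 0.05 for members and 0.37 for other genes in B6J.*Gtpbp1*-/-, and -0.13 and 0.03 in B6J-*Gtpbp2*-/-, so members lay below genes of like length in this class too. Abundant members also had the larger falls (rho of mean B6J TPM with the RNA change -0.49 and -0.54). The same B6J libraries enter both of these values, and TPM is scaled by length, so this rho is not free of B6J noise or of length. Whether transcript length or abundance bears on the falls was not tested further.

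**Figure D3:**
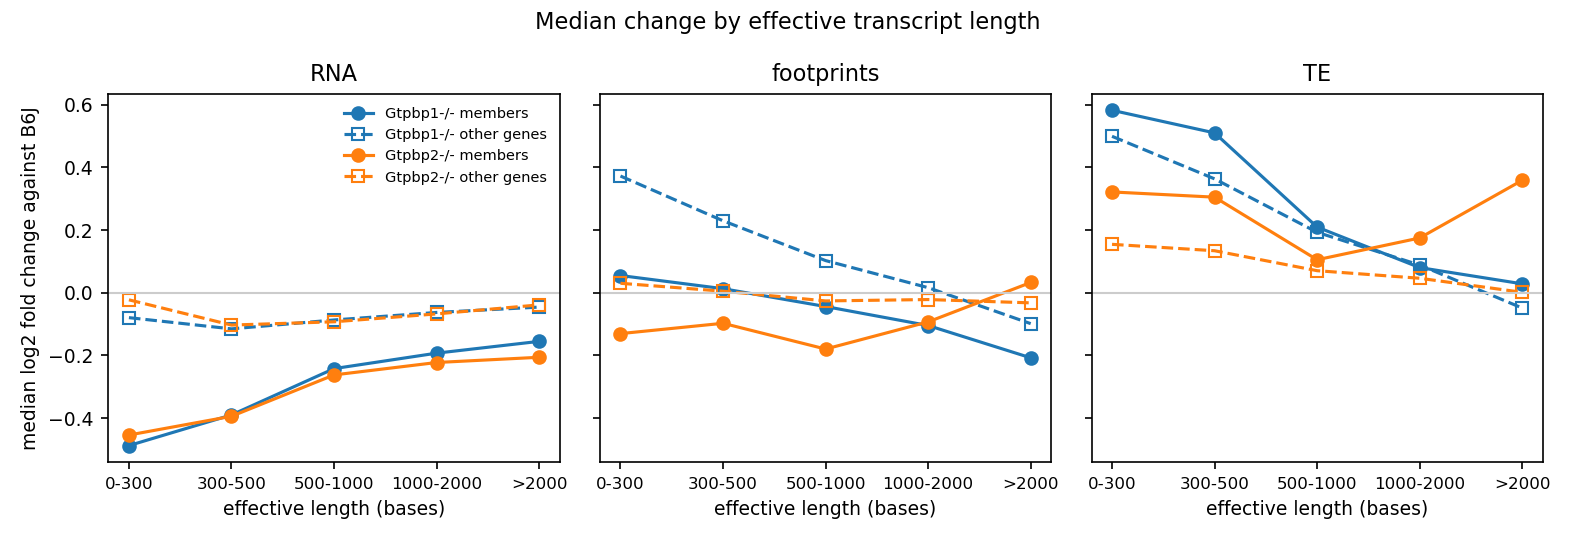
Median log2 fold change against B6J (y axis) by class of effective transcript length in bases (x axis), in RNA, footprints and TE, for members (filled circles, solid lines) and all other genes (open squares, dashed lines) of B6J.*Gtpbp1*-/- (blue) and B6J-*Gtpbp2*-/- (orange). Genes had a mean of at least 10 TPM, and the longest class holds only 3 members. Members lie under other genes in every RNA class, while in TE of B6J.*Gtpbp1*-/- both kinds of gene are higher the shorter they are.

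As the mutated tRNA reads AGA codons, the codons of members were counted in the longest coding sequence of each gene (Gencode M21). Members had a median of 1.5 AGA codons in 144 codons, with at most 15, and 19 of 94 (20.2%) had none. The 17041 tested genes with a coding sequence had a median of 5 in 451 codons, and 8.02% had none. Per 1000 codons the frequencies were close, 12.9 and 12.4, so the low number of AGA codons in members went with their short coding sequences. Members with and without AGA codons had median RNA changes of -0.31 (75 genes) and -0.33 (17 genes) in B6J.*Gtpbp1*-/- and -0.31 (75 genes) and -0.37 (16 genes) in B6J-*Gtpbp2*-/-. In footprints the medians were -0.03 with and 0.08 without AGA in B6J.*Gtpbp1*-/-, and -0.10 and -0.19 in B6J-*Gtpbp2*-/-. TE medians were 0.30 and 0.57 in B6J.*Gtpbp1*-/-, and 0.21 and 0.21 in B6J-*Gtpbp2*-/-. Spearman's rho of the number of AGA codons was 0.30 and 0.28 with the RNA change in B6J.*Gtpbp1*-/- (92 genes) and B6J-*Gtpbp2*-/- (91 genes), -0.18 and 0.26 with the footprint change (91 genes each), and -0.38 and 0.00 with the TE change (90 genes each). Longer coding sequences hold more AGA codons, and the part of length in these correlations was not tested. Here too the TE change holds the RNA change with its sign turned.

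Nuclear oxidative phosphorylation genes are known targets of the transcription factors NRF1 and GABP, an ETS factor, so promoters were searched for their core letters. RefSeq promoters of 300 bases around the gene start (GRCm38.p6) matched 76 of the 93 symbols. The NRF1 letters GCGCATGC, or GCATGCGC on the other strand, were in 12 of 76 member promoters (15.8%), against 3.05% of 27025 promoters. The ETS letters CCGGAAGT, or ACTTCCGG, were in 5 (6.58%), against 4.31%. Median RNA changes with and without the NRF1 letters were -0.39 (12 genes, 8 lower) and -0.34 (64 genes, 34 lower) in B6J.*Gtpbp1*-/- and -0.38 and -0.33 in B6J-*Gtpbp2*-/-. For ETS letters the B6J.*Gtpbp1*-/- medians were -0.42 (5 genes) and -0.33 (71 genes), and those of B6J-*Gtpbp2*-/- -0.45 (5 genes) and -0.32 (70 genes). Members with the letters had the lower median in each case, a difference that was not tested. Among members that passed in RNA of B6J.*Gtpbp1*-/-, *Cox8a* fell the most. The muscle isoform of *Cox6a1* rose, and *Uqcr11* holds both motifs. Promoters of these genes are shown 5′ to 3′ with the letters searched in capitals. They lie at chr19:7217567-7217866, chr5:115348909-115349208 and chr10:80406772-80407071, all on the minus strand. In *Cox6a1* the capitals hold the NRF1 letters on both strands, which overlap. A match of letters is a description and not a binding site.
Cox8a: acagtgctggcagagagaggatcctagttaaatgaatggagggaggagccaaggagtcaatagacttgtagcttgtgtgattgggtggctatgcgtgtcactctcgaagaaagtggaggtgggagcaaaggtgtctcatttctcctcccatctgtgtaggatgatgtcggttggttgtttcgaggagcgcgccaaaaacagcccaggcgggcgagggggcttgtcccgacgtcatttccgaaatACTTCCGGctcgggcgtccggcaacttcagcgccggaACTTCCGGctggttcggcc
Cox6a1: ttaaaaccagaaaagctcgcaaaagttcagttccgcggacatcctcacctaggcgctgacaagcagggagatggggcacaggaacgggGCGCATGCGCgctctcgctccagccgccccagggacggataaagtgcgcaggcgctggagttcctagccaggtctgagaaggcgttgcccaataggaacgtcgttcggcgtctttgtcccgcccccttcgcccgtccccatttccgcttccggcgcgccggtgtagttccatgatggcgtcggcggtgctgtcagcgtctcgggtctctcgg
Uqcr11: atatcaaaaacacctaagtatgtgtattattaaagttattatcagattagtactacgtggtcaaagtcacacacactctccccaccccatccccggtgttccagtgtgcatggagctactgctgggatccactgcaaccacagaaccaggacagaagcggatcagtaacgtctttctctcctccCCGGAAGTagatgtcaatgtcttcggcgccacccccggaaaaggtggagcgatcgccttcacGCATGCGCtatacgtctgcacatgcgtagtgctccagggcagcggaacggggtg

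Related pathways were followed in the same way. The 7 partners of the chain were cytochrome c (*Cycs*), cytochrome c1 of complex III (*Cyc1*) and small proteins bound to the complexes. Of these, 4 fell in each mutant (medians -0.35 and -0.37). They were *Cyc1* (-0.35 and -0.37, edgeR adjusted p = 0.00395 and 0.0118), *Higd2a*, a complex IV assembly factor (-0.77 ± 0.12 SE, adjusted p = 0.000741 and -0.66 ± 0.10 SE, adjusted p = 0.00260 in edgeR, lower in all 6 mutant libraries), *Chchd2* (-0.56 and -0.54) and *Chchd10* (-0.51 and -0.39). *Cycs* did not pass (-0.17 and -0.31, edgeR adjusted p = 0.296 and 0.0888). The B6J-*Gtpbp2*-/- call of *Chchd10* was lost without B6J-*Gtpbp2*-/- replicate 3, without B6J replicate 1 and without B6J replicate 2, with the length offset and with protein coding transcripts alone, and that of *Chchd2* without B6J replicate 1. Of 38 tested assembly factors outside the member symbols, 4 fell in B6J.*Gtpbp1*-/- and 2 in B6J-*Gtpbp2*-/-, a share near that of all genes, with medians of -0.12 and -0.15. *Cox14*, needed to start complex IV assembly, was at 167, 152 and 142 TPM in B6J, 92.3, 93.8 and 103 in B6J.*Gtpbp1*-/-, and 100.1, 99.1 and 83.1 in B6J-*Gtpbp2*-/-. It fell the most of these, with no overlap (-0.92 ± 0.09 SE, adjusted p = 2.69e-05 and -0.89 ± 0.11 SE, adjusted p = 0.000806 in edgeR), and its footprints fell in B6J-*Gtpbp2*-/- (-0.90 ± 0.16 SE, adjusted p = 0.00642), a call lost without B6J-*Gtpbp2*-/- replicate 1. *Coa3*, which acts with it in complex IV assembly, gave -0.36 and -0.39, and the copper chaperone *Cox17* -0.37 in B6J.*Gtpbp1*-/-. With 1 library left out, the *Coa3* call was kept in 2 of 6 fits in B6J.*Gtpbp1*-/- and 1 in B6J-*Gtpbp2*-/-, and the *Cox17* call in 1. The length offset ended the *Coa3* calls (edgeR adjusted p = 0.0785 and 0.0797), and it, upper quartile scaling, the replicate block and protein coding transcripts alone each ended that of *Cox17* (up to 0.656). In the citric acid cycle 6 and 5 of 13 genes fell (medians -0.25 and -0.26), with *Idh3g*, a subunit of isocitrate dehydrogenase, at -0.54 and -0.45, *Idh3b* at -0.38 and -0.41, and *Mdh2*, malate dehydrogenase, at -0.32 and -0.32. The *Mdh2* call was lost without B6J.*Gtpbp1*-/- replicate 2, without B6J.*Gtpbp1*-/- replicate 3 and without B6J replicate 1 in B6J.*Gtpbp1*-/- and without B6J-*Gtpbp2*-/- replicate 2, without B6J replicate 1 and without B6J replicate 2 in B6J-*Gtpbp2*-/-. It was lost with the length offset in both (edgeR adjusted p up to 0.0640 and 0.0513), and with the replicate block in B6J.*Gtpbp1*-/-. Of 8 carriers and porins 4 fell and 1 rose in each mutant. The phosphate carrier *Slc25a3* fell by 0.39 and 0.35 and *Slc25a11* by 0.42 and 0.36, while the porin *Vdac3* rose by 0.39 and 0.34. The B6J-*Gtpbp2*-/- call of *Slc25a3* was lost without B6J-*Gtpbp2*-/- replicate 3, without B6J replicate 1 and without B6J replicate 2. That of *Vdac3* was lost without B6J-*Gtpbp2*-/- replicate 2, without B6J-*Gtpbp2*-/- replicate 3, without B6J replicate 1 and without B6J replicate 2, and with the length offset (edgeR adjusted p = 0.0561). That of *Slc25a11* was lost in all fits but the one without B6J-*Gtpbp2*-/- replicate 1, with upper quartile scaling and with protein coding transcripts alone.

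Glycolysis, which makes ATP outside mitochondria, moved in the same direction: 14 of 16 genes fell in B6J.*Gtpbp1*-/- and 15 in B6J-*Gtpbp2*-/-, with medians of -0.39 and -0.42. *Eno2*, the neuronal enolase, was at 639, 617 and 603 TPM in B6J, 348, 335 and 284 in B6J.*Gtpbp1*-/-, and 409, 328 and 364 in B6J-*Gtpbp2*-/-. It was lower in all 6 mutant libraries, with -1.03 ± 0.10 (SE; adjusted p = 1.96e-05) and -0.85 ± 0.11 (SE; adjusted p = 0.000836) in edgeR. *Tpi1*, triosephosphate isomerase, fell by 0.73 and 0.66, and *Pgam1*, phosphoglycerate mutase, by 0.64 and 0.53. Of the glycolytic genes 0 passed as lower in footprints of B6J.*Gtpbp1*-/- in edgeR, where DESeq2 and a single edgeR model of all 9 libraries called *Eno2* and *Tpi1* lower, as did edgeR without a filter for *Eno2*, with 4 at an unadjusted p under 0.05 and a median of -0.33, and 2 in B6J-*Gtpbp2*-/-, *Eno2* and *Tpi1* (-0.69 ± 0.15 SE, adjusted p = 0.0238 and -0.61 ± 0.15 SE, adjusted p = 0.0442). The footprint call of *Eno2* in B6J-*Gtpbp2*-/- was lost without B6J-*Gtpbp2*-/- replicate 1, without B6J-*Gtpbp2*-/- replicate 2 and without B6J replicate 1, and in the single model (edgeR adjusted p = 0.0590). With 1 library left out, that of *Tpi1* was kept only without B6J replicate 3, and it was lost with upper quartile scaling, the replicate block and the single model (up to 0.0762).

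Of 12 regulators of mitochondrial genes, 2 fell and 2 rose in B6J.*Gtpbp1*-/-, and 2 fell and 1 rose in B6J-*Gtpbp2*-/-. *Ppargc1b*, a coactivator of mitochondrial biogenesis, was at 10.4, 11.8 and 11.97 TPM in B6J, 5.70, 7.56 and 8.51 in B6J.*Gtpbp1*-/-, and 7.95, 7.71 and 7.88 in B6J-*Gtpbp2*-/-. It was lower in every mutant library (-0.72 ± 0.14 SE, adjusted p = 0.00323 and -0.74 ± 0.13 SE, adjusted p = 0.00468 in edgeR). Its partner receptor *Esrra* fell by 0.33 and 0.44 (edgeR adjusted p = 0.0359 and 0.0252), at 51.1, 39.5 and 34.3 TPM in B6J, 38.6, 40.1 and 34.3 in B6J.*Gtpbp1*-/-, and 36.8, 40.3 and 30.3 in B6J-*Gtpbp2*-/-, overlapping groups. *Gabpa*, the ETS subunit of GABP, rose by 0.49 and 0.36 (edgeR adjusted p = 0.00255 and 0.0278), at 43.2, 38.3 and 34.9 TPM in B6J, 45.6, 45.1 and 50.7 in B6J.*Gtpbp1*-/-, and 39.8, 52.8 and 49.8 in B6J-*Gtpbp2*-/-, higher in all B6J.*Gtpbp1*-/- libraries and overlapping in B6J-*Gtpbp2*-/-. The length offset ended the calls of *Gabpa* and *Esrra* in both mutants, and upper quartile scaling and the replicate block that of *Esrra* in B6J.*Gtpbp1*-/-. *Yy1* rose by 0.37 in B6J.*Gtpbp1*-/- and gave 0.29 in B6J-*Gtpbp2*-/- without passing, though it passed there without a filter (edgeR adjusted p = 0.0296). The *Yy1* call in B6J.*Gtpbp1*-/- was lost with the length offset and with the replicate block (edgeR adjusted p up to 0.240). With 1 library left out, *Yy1* passed in 1 and *Esrra* in 2 of 6 fits in B6J.*Gtpbp1*-/-, while for B6J-*Gtpbp2*-/- *Esrra* passed in 3 and *Gabpa* in 2 of 6. The others did not pass in edgeR in either mutant, though *Nrf1* passed as higher in B6J.*Gtpbp1*-/- with upper quartile scaling and in DESeq2. They had log2 fold changes in B6J.*Gtpbp1*-/- and B6J-*Gtpbp2*-/- of 0.29 and 0.09 for *Nrf1*, 0.11 and 0.11 for *Tfam*, 0.25 and 0.17 for *Tfb1m*, 0.09 and 0.05 for *Tfb2m*, -0.02 and 0.02 for *Polrmt*, 0.04 and -0.03 for *Twnk*, -0.24 and -0.33 for *Ppara*, and -0.03 and -0.06 for *Ppargc1a*. In footprints none of the 12 passed in edgeR in either mutant, and 4 and 0 had an unadjusted p under 0.05.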

How the data were processed

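The authors deposited kallisto estimated counts and TPM per transcript for RNA (kallisto 0.42.4), and a count per gene of footprints on coding sequence from featureCounts, after Bowtie2 2.2.3 and HISAT2 2.1.0, on Gencode M20 and mm10. The estimated counts of the authors were summed per gene and rounded, and their TPM summed. RNA and footprints were thus counted by different tools, from libraries prepared by different methods, which bears on TE. Each pair of genotypes was fitted alone with edgeR 4.0.16 (TMM, robust quasi-likelihood test, R 4.3.3), genes needing at least 5 counts in at least 3 of 6 libraries, with p adjusted by Benjamini-Hochberg over all genes tested. TE was the interaction of assay and genotype over 12 libraries, for genes that reached 10 counts in 3 or more of the 6 libraries in RNA and likewise in footprints, leaving out histone genes of the prefix Hist. The SE is the absolute log2 fold change over the square root of F. Coordinates, coding sequences and codons came from Gencode M21 on GRCm38, promoters from RefSeq. Alternatives were DESeq2 1.42.0, upper quartile scaling, no filter, a replicate block, an offset for effective transcript length, protein coding transcripts alone, a single model over all libraries, TMM within each assay, and leaving out each library. Tables and plots were made in Python 3.11.15 with numpy 2.4.6, pandas 2.3.3, scipy 1.17.1 and matplotlib 3.10.9. The members and lists were chosen with earlier results of these data known. Named genes were the 4 members per complex with the smallest adjusted p among those that passed in RNA of either mutant, the most abundant member of each complex, core and catalytic members, isoform families, members that passed in footprints or TE, up to 3 genes per pathway list, and all regulators. Members named for a range, an alternative tool or a single left-out library (*Ndufa9*, *Cox7b2*, *Cox7c*, *Uqcrq* and *Atp5h* among them), marker genes with their lists, *Cyc1* and *Cycs* of the partners, and genes near *Cox6a2* were named after their values had been seen. 1 named gene, withheld for evaluation, is not reported here.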

Additional observations from a re-analysis of the deposited data

How the results depend on the processing

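No call of a named gene against B6J turned its direction under any alternative, and calls between the mutants were not checked in this way. The footprint median of B6J.*Gtpbp1*-/-, close to 0, did change sign. With upper quartile scaling the split of all RNA calls turned from mostly lower to mostly higher in both mutants. Many of the calls of single genes that were lost or gained, though not all, stand beside the results above. Members called lower in RNA numbered 54 in B6J.*Gtpbp1*-/- and 50 in B6J-*Gtpbp2*-/- with DESeq2, 43 and 37 with upper quartile scaling (median in B6J-*Gtpbp2*-/- -0.27), 48 and 42 without a filter, 45 and 41 with protein coding transcripts alone, 47 and 48 with all 9 libraries in a single model, and 35 and 27 with the offset for effective transcript length. With CPM in place of TPM, summed member levels gave log2 ratios of -0.32 and -0.33 for B6J.*Gtpbp1*-/- and B6J-*Gtpbp2*-/-. With DESeq2, 2 members were called higher in footprints of B6J.*Gtpbp1*-/-, 2 lower in footprints of B6J-*Gtpbp2*-/- (1 in edgeR without a filter), 3 higher in B6J.*Gtpbp1*-/- in the direct comparison of footprints, and 4 and 4 higher in TE of B6J.*Gtpbp1*-/- and B6J-*Gtpbp2*-/-. Leaving out each library in turn, members called lower in RNA ranged from 40 to 45 in B6J.*Gtpbp1*-/- and 20 to 41 in B6J-*Gtpbp2*-/-, members called higher in footprints from 0 to 1 and 1 to 3, and members called higher in TE from 0 to 6 and 0 to 3. The footprint medians then ranged from -0.07 to 0.04 in B6J.*Gtpbp1*-/- and -0.19 to -0.030 in B6J-*Gtpbp2*-/-, and the TE medians from 0.24 to 0.37 and 0.12 to 0.26. The cause of these shifts was not tested. Within each assay, libraries of the same replicate number did not pair across genotypes: after the genotype mean was removed, their correlations ran from -0.0452 to 0.0894 in RNA and from -0.260 to 0.0975 in footprints, and those of different numbers from -0.0754 to 0.0993 and -0.184 to 0.250. RNA libraries were not correlated with footprint libraries of the same genotype and number, so pairing between the assays was not examined in this way. With the replicate number as a block, 40 and 40 members were called lower in RNA of B6J.*Gtpbp1*-/- and B6J-*Gtpbp2*-/-, 1 and 1 higher in footprints and 0 and 0 in TE. Processed pseudogenes and paralogs of these genes share reads with them, and the RNA counting was not stated to use strand. Footprint libraries were shallower than RNA libraries, so a count of 0 there does not show that members did not differ.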
